A study of Mus musculus with 8 samples.

Results

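Cells captured with an antibody to EpCAM were compared here with hepatocytes, both from regenerating mouse livers. The comparison was set by the sample labels and holds 4 of the 8 RNA-seq libraries of the series: 2 of EpCAM-positive cells and 2 of hepatocytes. The other 4 libraries, 2 each of F4/80high cells with (b-gal+) and without (b-gal-) activity of the reporter, serve as a second reference. All mice carried the Lgr5-LacZ transgene on a mixed C57BL/6 and CBA background, were 10 to 12 weeks old by the sample labels (7 to 12 in the series text), and had received a single intraperitoneal dose of 1 µl CCl4 per g body weight in rapeseed oil 6 days before the livers were taken; no library comes from uninjured or transgene-free mice. Each library pools the cells of 2 mice. Livers were dissociated with collagenase and then pronase. Hepatocytes were spun out at low speed and taken without sorting, whereas EpCAM-positive cells were sorted by flow cytometry after red cell lysis, a reporter substrate step and antibody staining, so cell type and preparation cannot be told apart. The labels number replicates 1 and 2 in each group. The p-values measure the spread between these pooled libraries, taken as 1 spread per gene shared by all 4 groups, the F4/80high groups included.

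Bile ducts are lined by cholangiocytes, an epithelium that shares an embryonic progenitor with hepatocytes. Cholangiocytes carry EpCAM and keratins 7 and 19, modify bile through chloride and bicarbonate transport, and are specified by Notch signalling and by the transcription factor SOX9. Hepatocytes secrete albumin and clotting factors, run the urea cycle, make bile acids and metabolise foreign compounds, CCl4 among them, through cytochromes P450. EpCAM is also carried by some dendritic cells and lymphocytes, which makes the other contents of an EpCAM gate a question in their own right.

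The libraries hold 16948568 to 24549242 reads in named genes, and 21968 named genes are listed in each, of which 14404 passed a filter on low counts. Levels are given in CPM, reads per 1000000 reads after TMM scaling (a normalization that sets most genes level between libraries), as replicate 1 and then replicate 2 of a group. The scaling has a visible effect, because the 10 most abundant genes took 19.9% and 23.2% of hepatocyte reads but 4.85% and 6.08% of EpCAM-positive reads.

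The sorting antigen marked the gate as labelled. Epcam stood at 88.5 and 214 CPM in EpCAM-positive cells and at 0.148 and 0.16 CPM in hepatocytes, a log2 difference of 7.72 (SE 0.50, adjusted p = 3.39e-05 by limma with Benjamini-Hochberg adjustment, as for every adjusted p here). Krt19, a duct keratin, was at 28.4 and 112 CPM against 0.369 and 0.239 CPM (log2 6.15, SE 0.66, adjusted p = 0.000267). The groups did not overlap for either gene, and replicate 2 was the higher EpCAM-positive library for both. Sox9 was at 30 and 201 CPM in EpCAM-positive cells and 20.6 and 7.82 CPM in hepatocytes (log2 2.57, SE 0.93, adjusted p = 0.0462). EpCAM-positive replicate 1 lay close to hepatocyte replicate 1 for Sox9, and the call was lost in 7 of 8 fits that each left out 1 library, with adjusted p up to 0.248. Alb, the plasma albumin gene, was at 126463 and 202801 CPM in hepatocytes and at 652 and 4704 CPM in EpCAM-positive cells (log2 -6.51, SE 1.03, adjusted p = 0.00148), and the call was lost in a fit of the 4 compared libraries alone (adjusted p = 0.209 by limma). Its EpCAM-positive level was thus far below the hepatocyte level, and is set beside 222 and 572 CPM in b-gal+ and 138 and 335 CPM in b-gal- cells. In bulk RNA, fewer cells of a type and less RNA per cell cannot be told apart.

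**Figure D1:**
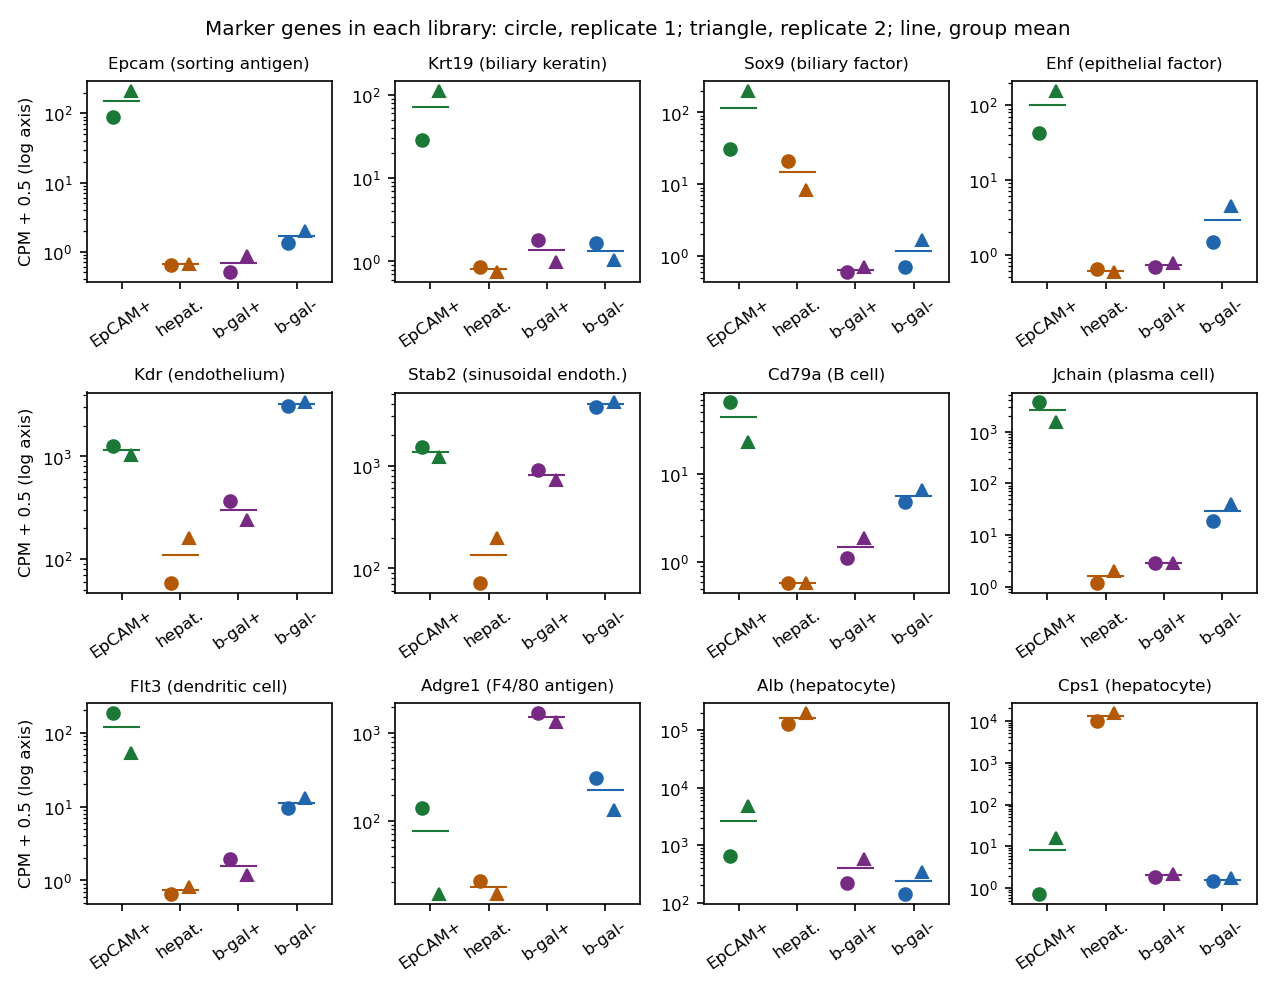
Levels of 12 marker genes in the 8 libraries, on log axes of CPM + 0.5, with a circle for replicate 1, a triangle for replicate 2 and a line at the group mean. Epcam, Krt19 and Ehf are far above hepatocytes in both EpCAM-positive libraries and highest in replicate 2. Sox9 is highest in replicate 2 too, but its replicate 1 lies close to hepatocyte replicate 1. The endothelial genes Kdr and Stab2 lie between hepatocytes and b-gal- cells, and Cd79a, Jchain and Flt3 are highest in EpCAM-positive replicate 1.

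Promoter sequences are shown for the sorting antigen, for a duct-side gene and for 2 hepatocyte genes far lower in EpCAM-positive cells. They are single examples, and shares over sets of genes follow below. Each run holds the 250 bases before the RefSeq start (GRCm38.p6), 5′ to 3′ on the gene's strand, with the HNF1 motif GTTAAT (an end of the longer site) or the TEAD site GGAATG, on either strand, in capitals. HNF1 factors drive many hepatocyte genes, and TEAD factors are the DNA-binding partners of YAP in the Hippo pathway. Epcam (chr17:87635729-87635978, plus strand) holds neither, and Ankrd1 (chr19:36119845-36120094, minus strand), a YAP target at 9.18 and 94.1 CPM in EpCAM-positive cells and 0 and 0.16 CPM in hepatocytes, holds GGAATG beginning 210 and 123 bases before its start. Alb (chr5:90460620-90460869, plus strand) and Itih1 (chr14:30943290-30943539, minus strand), which encodes a plasma protein of the hyaluronan matrix and stood at 2519.7 and 2627 CPM in hepatocytes and 4.68 and 20 CPM in EpCAM-positive cells, hold the HNF1 motif, on the minus strand in Itih1, beginning 32 and 27 bases before theirs.
Epcam: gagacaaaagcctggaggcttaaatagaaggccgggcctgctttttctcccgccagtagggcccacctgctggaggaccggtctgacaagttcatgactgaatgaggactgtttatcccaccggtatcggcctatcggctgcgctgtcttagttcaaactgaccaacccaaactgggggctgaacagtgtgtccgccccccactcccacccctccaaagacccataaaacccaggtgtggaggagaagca
Ankrd1: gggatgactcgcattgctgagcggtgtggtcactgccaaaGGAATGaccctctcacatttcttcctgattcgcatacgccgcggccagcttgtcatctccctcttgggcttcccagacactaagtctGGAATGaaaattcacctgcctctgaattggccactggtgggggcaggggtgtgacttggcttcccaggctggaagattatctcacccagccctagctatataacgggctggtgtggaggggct
Alb: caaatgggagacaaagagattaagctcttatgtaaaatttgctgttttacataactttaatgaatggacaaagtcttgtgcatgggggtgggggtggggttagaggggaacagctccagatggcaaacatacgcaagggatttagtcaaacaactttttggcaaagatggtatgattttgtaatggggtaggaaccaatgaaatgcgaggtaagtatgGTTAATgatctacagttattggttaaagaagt
Itih1: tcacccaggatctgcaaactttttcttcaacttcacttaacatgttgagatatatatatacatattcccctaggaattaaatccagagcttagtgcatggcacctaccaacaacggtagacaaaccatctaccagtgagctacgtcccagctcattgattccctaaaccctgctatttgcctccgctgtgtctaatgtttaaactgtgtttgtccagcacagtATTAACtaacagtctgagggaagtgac

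Among the 8727 tested genes with a single RefSeq promoter entry, 4.38% held the HNF1 motif in these 250 bases. It was found in 3.30% of promoters of genes higher and 6.03% of those lower in EpCAM-positive cells. Of the 245 genes lower there by 64-fold or more 20% held it, and of 16 genes for secreted plasma proteins 37.5%. A TATA box, TATAAA, was found in 19.2% of those 245 promoters and in 7.44% of all tested. Its share was 7.43% among genes higher and 7.87% among genes lower in EpCAM-positive cells. The TEAD site was held by 10.5% of all tested promoters, by 10.9% of the promoters of genes higher and 11.0% of those lower in EpCAM-positive cells, by 13.1% of those lower by 64-fold or more, and by 17.6% of 136 promoters of genes that were restricted to the EpCAM-positive gate by the level rule given further on and higher in its replicate 2, against 6.98% of 43 that were higher in its replicate 1. These shares describe genes chosen by their levels and carry no test, and over all 22862 single RefSeq promoters the HNF1 motif, the TATA box and the TEAD site occur in 6.68%, 13.6% and 12.6%. The AP-1 site TGANTCA was found in 4.96% of promoters of genes higher in EpCAM-positive cells and 4.62% of all tested, in 8.98% of those lower by 64-fold or more, and in 25% of the plasma protein genes. The HNF4A site CAAAGTCCA was in 0.504% of all tested promoters, in 3.67% of those lower by 64-fold or more and in none of the 16 plasma protein genes. The other motifs searched (CRE TGACGTCA, GRHL AACCGGTT and the NF-kB site, each on both strands, none contained in another) were in 0.229% to 2.68% of tested promoters.

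Across all genes, 4823 (33.5% of 14404) were higher and 4186 (29.1%) lower in EpCAM-positive cells than in hepatocytes at an adjusted p under 0.05, or 9009 (62.5%) in either direction. Of these, 3930 and 3208 differed by 2-fold or more. The groups did not overlap for 11637 genes (80.8%). The balance of the calls rests on the scaling: with TMM 53.5% of calls were higher and the median gene differed by 0.15 on the log2 scale, whereas with plain library totals 9665 genes were higher and 1651 lower (85.4% higher) and the median gene differed by 1.37. Counts of list members below are therefore to be read against a background of 33.5% higher and 29.1% lower.

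Among genes higher in EpCAM-positive cells that averaged 20 CPM or more and whose groups did not overlap, the largest differences were in genes outside the duct lists. Jchain, the joining chain of secreted antibodies, was at 3783 and 1524 CPM in EpCAM-positive cells and 0.664 and 1.52 CPM in hepatocytes (log2 10.61, SE 0.53, adjusted p = 1.52e-05). Fosb, an immediate-early transcription factor, came next with 995 and 2029 CPM against 0.517 and 0.559 CPM (log2 10.42, adjusted p = 9.28e-06). Scara3, a scavenger receptor family member, followed at 90 and 522 CPM against 0.221 and 0.319 CPM (log2 8.14, adjusted p = 0.000196). Jchain was higher in EpCAM-positive replicate 1 and both others in replicate 2, with no overlap with hepatocytes for any of them. The rest of the 12 highest differences were Atf3, Irf4, Epcam, Cd24a, H2-Eb1, Cytip, Pmaip1, H2-Ob and Hspa1a, with log2 differences from 8.05 to 7.30, and they mix stress response genes, lymphoid and antigen presentation genes, and the duct surface genes Epcam and Cd24a.

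Of 12 biliary surface and keratin genes, 9 were higher in EpCAM-positive cells, none was lower and 3 passed no test, with a median log2 difference of 5.14. Krt7 was at 19.6 and 58.2 CPM against 0.295 and 0.16 CPM (log2 5.57, adjusted p = 0.000158). Tspan8, a tetraspanin of secretory epithelia, was at 35.3 and 134 CPM against 0.148 and 0.0798 CPM (log2 6.82, adjusted p = 0.000167). Anxa13, an epithelial annexin, reached 31.9 and 184 CPM against 0.221 and 0.239 CPM (log2 6.73, adjusted p = 0.00039). For these 3 the lower EpCAM-positive library was far above both hepatocyte libraries, and replicate 2 exceeded replicate 1. Cd24a, a surface glycoprotein of ducts, had EpCAM-positive libraries that were level at 223 and 219 CPM, against 0.369 and 0.958 CPM in hepatocytes, and B cells carry it as well.

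Of 13 biliary transcription factors, 11 were higher and none lower (median log2 3.54). Ehf, an ETS factor of epithelia, was at 41.6 and 156 CPM against 0.148 and 0.0798 CPM (log2 7.05, SE 0.72, adjusted p = 0.000214). Glis3, a zinc-finger factor whose loss gives cystic disease, was at 19.2 and 120.1 CPM against 0.0738 and 0.319 CPM (log2 6.15, adjusted p = 0.000609). Sox4, which acts with SOX9 in duct formation, was at 38.3 and 155 CPM against 2.66 and 1.28 CPM (log2 5.03, adjusted p = 0.00053). None of these groups overlapped. Hes1, the Notch effector, was at 145 and 427 CPM against 18.9 and 13.6 CPM (log2 3.91, adjusted p = 0.000608), but b-gal- cells also held 125 and 92.9 CPM, not far below EpCAM-positive replicate 1. Foxj1, the regulator of motile cilia, had no reads in either hepatocyte library, which allows up to 0.221 and 0.239 CPM there, and stood at 6.84 and 26.4 CPM in EpCAM-positive cells, so it was at least 69.3-fold higher on the mean against a floor of 3 reads per library.

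Onecut2, a factor that hepatocytes also express, was an exception. It was at 24.6 and 170.3 CPM in EpCAM-positive cells and 199 and 220.3 CPM in hepatocytes (log2 -1.68, adjusted p = 0.154), lower in both EpCAM-positive libraries than in either hepatocyte library without passing the test. In b-gal- cells it was at 0.154 and 1.76 CPM, and it was called higher in EpCAM-positive cells than in the F4/80high mean (log2 5.92, adjusted p = 0.00515).

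The same division ran through 23 tested genes of epithelial adhesion and junctions, of which 12 were higher, 2 lower and 9 passed no test (median log2 1.06). St14, the membrane protease matriptase, had no reads in hepatocytes and stood at 33.5 and 134 CPM in EpCAM-positive cells, at least 350-fold higher against the floor. Cldn4 was at 19.4 and 125 CPM against 0.0738 and 0.16 CPM (log2 6.34, adjusted p = 0.000453), and Spint1, an inhibitor of matriptase, at 42.7 and 70.5 CPM against 0.148 and 0.16 CPM (log2 6.40, adjusted p = 0.000342). In contrast, Cdh1, which encodes E-cadherin, was at 129 and 612 CPM against 214 and 258 CPM (log2 0.26, adjusted p = 0.739) and Dsp, the desmosome gene desmoplakin, at 78 and 394 CPM against 182 and 256 CPM (log2 -0.30, adjusted p = 0.753). For these general epithelial genes the hepatocyte libraries lay between the EpCAM-positive replicates, and F4/80high cells held little (Cdh1 1.43 and 1.65 CPM in b-gal+ and 5.57 and 4.21 CPM in b-gal- cells). Esrp2, an epithelial splicing regulator, was lower at 3.1 and 23.7 CPM against 159.9 and 167 CPM (log2 -4.13, adjusted p = 0.00361). Without EpCAM-positive replicate 2, 9 members of this list were lower instead of 2, so the place of the junction genes relative to hepatocytes rests on that library.

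Among duct transporters and receptors, 10 of 15 tested were higher and 2 lower (median log2 2.63, or 3.55 with members at 0 in hepatocytes set at the floor). Cftr, the chloride channel of duct secretion, had no hepatocyte reads and stood at 10.7 and 29 CPM in EpCAM-positive cells, at least 82.9-fold higher. Slc5a1, a sodium-glucose cotransporter, was at 37.4 and 338 CPM against 3.03 and 3.83 CPM (log2 4.86, adjusted p = 0.0045), Kcne3, a potassium channel subunit, at 19 and 55.3 CPM against 0.148 and 0.0798 CPM (log2 5.75, adjusted p = 0.000193), and Ano1, a calcium-activated chloride channel, at 19.5 and 97.5 CPM against 0.369 and 2 CPM (log2 4.91, adjusted p = 0.00212). These channel genes did not overlap with hepatocytes. Slc10a2, the apical bile acid carrier that cholangiocytes are known to use, went the other way with 0.152 and 1.94 CPM in EpCAM-positive cells and 97.6 and 54 CPM in hepatocytes (log2 -5.86, adjusted p = 0.000256). Slc4a4, a sodium bicarbonate cotransporter, was also lower (14.6 and 66.9 against 337 and 349 CPM, log2 -3.43, adjusted p = 0.00288). Aqp1, the water channel, was higher than in hepatocytes at 2139.8 and 2057 CPM against 113 and 284 CPM (log2 3.55, adjusted p = 0.000679), yet b-gal- cells held more, at 4825 and 6219 CPM, and sinusoidal endothelium also expresses it.

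Secreted and mucosal genes gave a mixed picture, with 6 of 12 tested higher and 3 lower (median log2 1.21, or 1.22 at the floor), and between 2 and 3 higher when EpCAM-positive replicate 2 or either hepatocyte library was left out. Spp1, osteopontin, was at 1837 and 5686 CPM against 113 and 9.98 CPM (log2 6.55, SE 1.79, adjusted p = 0.0165), and the call was lost without EpCAM-positive replicate 2 or hepatocyte replicate 2, with adjusted p up to 0.119. Muc1, a membrane mucin, was at 24.3 and 97 CPM against 0.812 and 0.878 CPM (log2 5.19, adjusted p = 0.000511). Clu, the chaperone clusterin, was abundant on both sides at 1729 and 8729.5 CPM against 4631 and 3166 CPM (log2 0.02, adjusted p = 0.981), and Pigr, the receptor that carries dimeric antibody into bile, was lower at 139 and 633 CPM against 5439 and 6009 CPM (log2 -4.27, adjusted p = 0.00166). The other calls of this list were Tff2, Wfdc15b, Lyz2 and Mmp7 (higher) and Tff3 and Defb1 (lower).

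Of 20 tested genes of the ductular reaction and of Notch and Hippo signalling, 14 were higher and none lower (median log2 2.33, or 2.63 at the floor). The YAP targets Ankrd1 (log2 5.72, adjusted p = 0.00181), Cyr61 (179.6 and 1174 against 14.9 and 19.2 CPM, log2 4.72, adjusted p = 0.00163) and Ctgf (69.1 and 176 against 4.5 and 3.35 CPM, log2 4.66, adjusted p = 0.00131) were all higher, and Ankrd1 was near 0 in F4/80high cells (0.0447 and 0 CPM in b-gal+ and 0.0384 and 0.294 CPM in b-gal- cells), where Ctgf reached 110.1 and 47.2 CPM in b-gal- cells. The Notch ligand Jag2 was at 13.3 and 12.2 CPM against 0.148 and 0.479 CPM (log2 4.06, adjusted p = 8.22e-05), level between the EpCAM-positive replicates, and Jag1 at 26.3 and 79.8 CPM against 4.21 and 5.75 CPM (log2 3.10, adjusted p = 0.00262). Notch2 was at 232 and 256 CPM against 130.3 and 179 CPM (log2 0.67, adjusted p = 0.136), and Fgfr3 at 100.3 and 753 CPM against 56.4 and 94 CPM (log2 1.91, adjusted p = 0.0869); neither passed the test. Cilium and polycystic disease genes had a median nearer to that of all genes: 6 of 17 were higher, 2 lower and 9 passed no test (median log2 0.80), with 14 higher and 0 lower when library totals replaced TMM. Bicc1, an RNA-binding protein whose loss gives cystic kidneys, led them at 36.3 and 193 CPM against 5.17 and 3.11 CPM (log2 4.22, adjusted p = 0.00322).

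**Figure D2:**
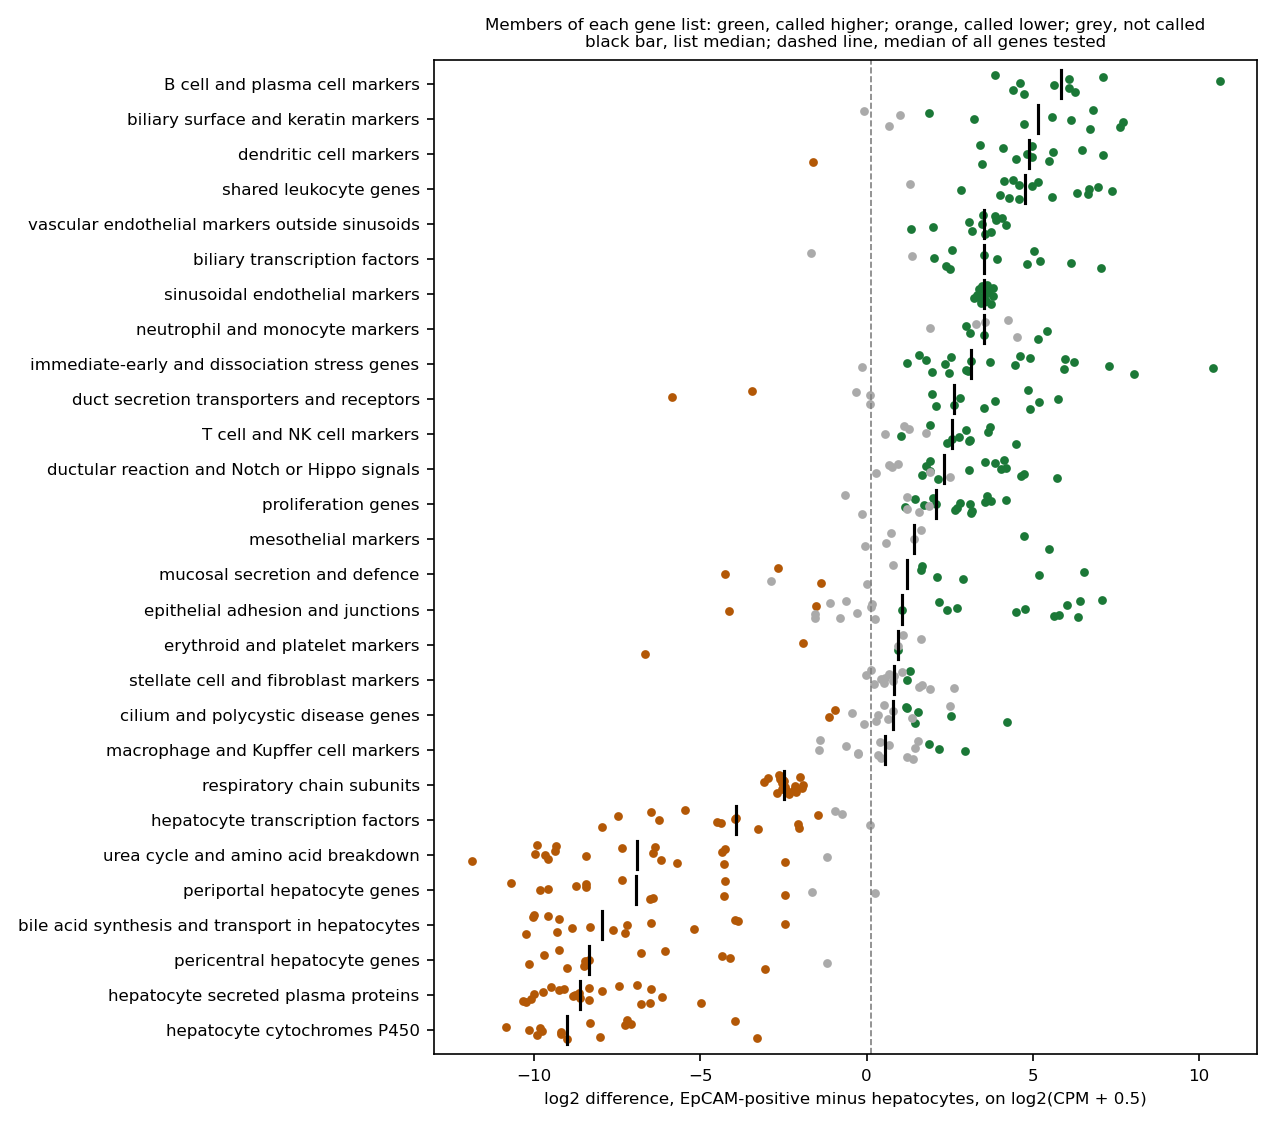
Log2 difference between EpCAM-positive cells and hepatocytes for each tested member of 28 gene lists (1 point per gene; green, called higher; orange, called lower; grey, no call), with the list median as a black bar and the median of all tested genes as a dashed line. B cell and plasma cell genes have the highest list median (5.85), above the biliary surface genes (5.14), and cytochrome P450 genes the lowest (-9.01).

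The 2 EpCAM-positive libraries differed from each other more than the replicates of any other group. Their Spearman correlation across the 14404 genes was 0.926, against 0.980 to 0.985 in the other 3 groups, and 20.9% of genes differed by more than 2-fold, against 4.66% to 6.15%. In all, 1328 genes were over 2-fold higher in replicate 1 and 1682 in replicate 2, with a median of 0.02 over all tested genes. With 1 library on each side these differences carry no test.

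Replicate 2 held more of the epithelial genes. Its summed level of the 12 biliary surface and keratin genes was 2058 CPM against 744 CPM in replicate 1, of the 13 biliary factors 1613 against 367 CPM, and of the 24 listed junction genes 2550 against 744 CPM. The list medians of the difference, replicate 1 minus replicate 2, were -1.73, -2.00 and -2.24 on the log2 scale. Replicate 2 also held more hepatocyte plasma protein transcripts, 7223 CPM summed over 22 genes against 1825 CPM (median -1.99). Immune lists ran the other way. Replicate 1 held 4403 CPM of 10 B cell and plasma cell genes against 1700 CPM in replicate 2 (median 1.66), 1724 against 591 CPM of 12 dendritic cell genes (median 1.37), 1558 against 405 CPM of 16 macrophage and Kupffer cell genes (median 2.61) and 857 against 139 CPM of 10 neutrophil and monocyte genes. The 18 sinusoidal endothelial genes were level, at 14632 and 12854 CPM (median 0.24).

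At the extremes among genes at 50 CPM or more, replicate 1 was higher for Cd5l (213 and 14.8 CPM), a Kupffer cell product, for the neutrophil genes Chil3 (125 and 4.75 CPM), S100a8 (92.3 and 2.88 CPM) and S100a9 (159 and 8.19 CPM), and for the Y-linked Ddx3y (59.3 and 0 CPM). Replicate 2 was higher for Tmem45a (8.08 and 156 CPM), Adam33 (2.89 and 51.8 CPM), Cyp26b1 (90.5 and 1253 CPM), which degrades retinoic acid, Krt17 (7.08 and 78.9 CPM), a stress-inducible keratin, Pak6 (9.27 and 102 CPM) and Ankrd1 (9.18 and 94.1 CPM). Y-linked genes split every group in the same way: Ddx3y, Eif2s3y, Kdm5d and Uty had reads in all 4 libraries numbered 1 and none in the 4 numbered 2, where the floor was 0.112 to 0.239 CPM, and Xist was higher in the libraries numbered 2 (EpCAM-positive 239 and 774 CPM, hepatocytes 414 and 1836 CPM). The labels state no sex. Sex-biased liver genes differed between the hepatocyte libraries too, as with Cyp2d9 (781 and 114 CPM), Serpina1e (2753 and 336 CPM) and Cyp4a12a (66 and 0.559 CPM), and the part of this split in the gap between EpCAM-positive libraries was not tested.

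**Figure D3:**
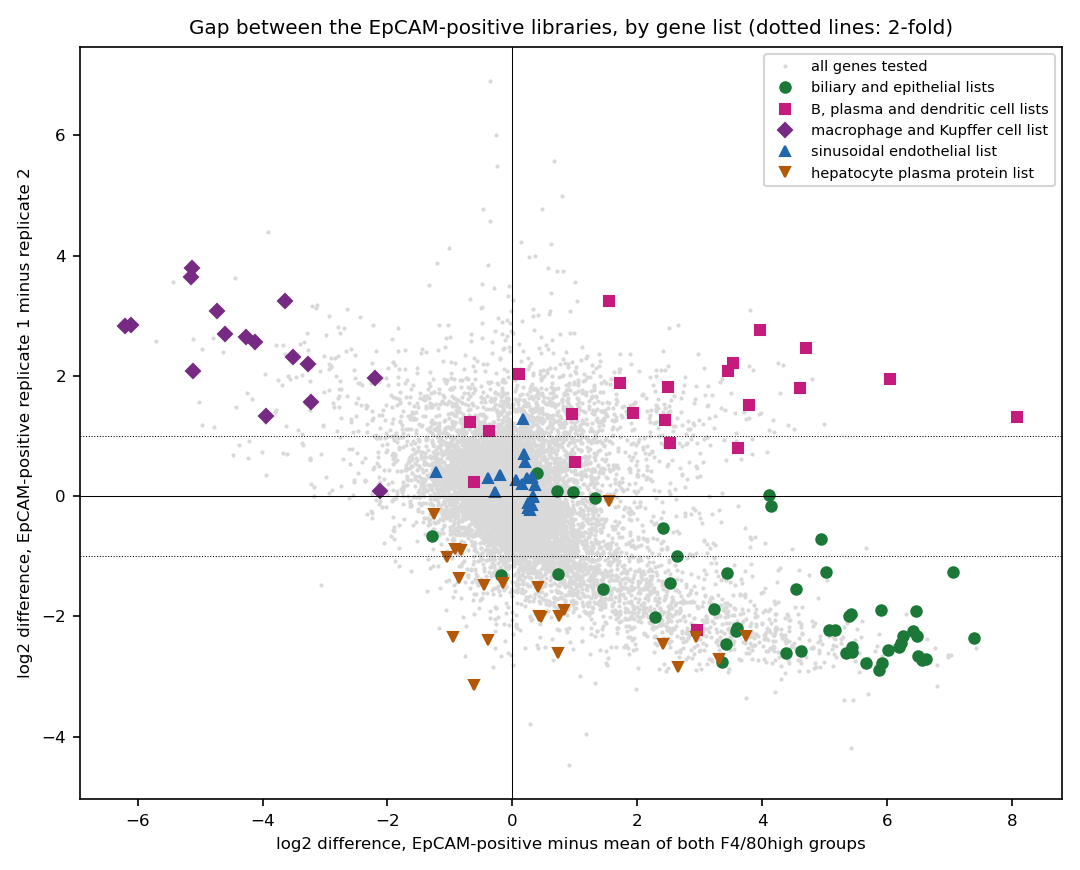
Log2 difference between EpCAM-positive replicate 1 and replicate 2 (vertical) against the log2 difference between EpCAM-positive cells and the mean of both F4/80high groups (horizontal), for all 14404 tested genes in grey and for members of named lists in colour; dotted lines mark 2-fold. Biliary and epithelial genes lie at the lower right, B, plasma and dendritic cell genes at the upper right, macrophage genes at the upper left and most sinusoidal endothelial genes near 0 on both axes.

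To separate duct transcripts from those of other cells in the gate, the 4823 genes higher than in hepatocytes were sorted by level. A gene counted as restricted to the EpCAM-positive gate when the lower EpCAM-positive library was at least 2-fold above the highest of the 4 F4/80high libraries (on CPM + 0.5), and as shared when the mean of the b-gal+ or of the b-gal- libraries reached the EpCAM-positive mean. Restricted genes numbered 413 (8.56%), shared genes 3109 (64.5%), and 1301 (27.0%) were neither. Leaving out either EpCAM-positive library raised the restricted class to 798 (without replicate 1) or 677 (without replicate 2), and a 4-fold minimum lowered it to 161. The direction of these changes follows largely from the rule. It takes the lower EpCAM-positive library, a level that can only stay or rise with 1 left out, and a stricter minimum can only shrink the class. The rule also uses the levels of both EpCAM-positive libraries, so a split by replicate only describes the restricted class. In it, 232 genes (56.2%) were over 2-fold higher in replicate 2, 66 (16.0%) in replicate 1 and 115 (27.8%) within 2-fold, whereas 83.4% of shared genes were within 2-fold. Over all 4823 genes, 11.6% were over 2-fold higher in replicate 2, 16.6% in replicate 1 and 71.8% within 2-fold.

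By EpCAM-positive mean, those higher in replicate 2 were led by Scara3, Slc5a1, Dcdc2a, Epcam, Sox9, Bicc1, Anxa13 and Ehf, and this subset holds 7 biliary surface and keratin genes, 7 biliary transcription factors and 8 junction genes of the lists. Those higher in replicate 1 were led by Jchain, Irf4, Itgb7, H2-Ob, Mzb1, Flt3, Cyfip2 and Pou2af1, and this subset holds 5 B cell and plasma cell genes and 3 dendritic cell genes of the lists, with most genes of either subset in no list. Those within 2-fold were led by Cd24a and include Spint1 as well as Siglecg and Ccr7. Dcdc2a, a doublecortin-domain protein of cilia, was at 46.3 and 274 CPM against 2.51 and 2.71 CPM (log2 5.19, adjusted p = 0.00116), with 1.7 and 1.85 CPM in b-gal+ and 2.8 and 6.07 CPM in b-gal- cells. Irf4, a factor of plasma and dendritic cell differentiation, was at 229.6 and 95 CPM against 0.148 and 0.239 CPM (log2 7.74, adjusted p = 2.45e-05).

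Against the mean of both F4/80high groups, 1524 genes (10.6%) were higher in EpCAM-positive cells and 1325 (9.2%) lower. That contrast uses the same EpCAM-positive libraries, so its values are given beside those above and not as further support. Epcam differed by 7.06 on the log2 scale (adjusted p = 0.00151), Krt19 by 5.43 (adjusted p = 0.00309), Sox9 by 6.56 (adjusted p = 0.004) and Alb by 2.66 (adjusted p = 0.0827). Sox9, which barely passed against hepatocytes, stood far above F4/80high cells, and Alb did not pass against them. With library totals in place of TMM the counts were 2703 higher and 618 lower. Without b-gal+ replicate 2 they were 870 and 657, without b-gal+ replicate 1 1007 and 748, without b-gal- replicate 1 964 and 667 and without b-gal- replicate 2 991 and 801. Without EpCAM-positive replicate 2 there were 726 lower.

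Sinusoidal endothelial genes made up the largest list in which every member was higher than in hepatocytes: 18 of 18 (median log2 3.54), and 18 of 18 were in the shared class. Kdr, the VEGF receptor, was at 1272 and 1036 CPM in EpCAM-positive cells, 57.7 and 160.4 CPM in hepatocytes, 3079 and 3421 CPM in b-gal- and 365 and 238 CPM in b-gal+ cells (log2 3.57 against hepatocytes, SE 0.48, adjusted p = 0.000722). Stab2, a hyaluronan scavenger of sinusoids, was at 1513 and 1221 CPM against 71.1 and 196 CPM in hepatocytes (log2 3.52, adjusted p = 0.000749). Both EpCAM-positive libraries lay above both hepatocyte libraries and below both b-gal- libraries. The ratio to b-gal- cells fell in a narrower range for the EpCAM-positive mean than for either library. Over the 18 genes that mean was 33.2% to 40.8% of the b-gal- mean, with a median of 37.6%. Replicate 1 ranged from 34.9% to 56.8% (median 39.4%) and replicate 2 from 23.4% to 44.1% (median 35.3%). Hepatocytes held a median of 2.26% and 4.67% of the b-gal- level. For the 16 macrophage genes the EpCAM-positive mean ranged from 8.87% to 63.1% of the b-gal- mean. Genes were also set side by side per kilobase of exon (GENCODE M21). Lengths were the union of all annotated exons, 9030 bases for Kdr and 7049 for Krt7, and not those of the expressed transcripts. On that rough scale Epcam was at 40.3 and 97.4 CPM per kb, Krt19 at 15.3 and 60.2 and Kdr at 141 and 115. The endothelial receptor was thus the highest of these 3 in both EpCAM-positive libraries, with Epcam not far below it in replicate 2. This order does not hold for all duct or immune genes. Spp1 (1115 and 3450 CPM per kb) and Jchain (1503 and 605) lay above Kdr, and Krt7 (2.79 and 8.25) and Sox9 (7.25 and 48.7) below it.

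Every member of a list drawn up for vessels outside sinusoids was also higher, 12 of 12 (median log2 3.54), and 9 of the 12 were in the shared class. Whether these transcripts come from other vessels than the sinusoidal ones was not tested. Vwf, the clotting factor of large-vessel endothelium, was at 40.8 and 74.4 CPM against 3.03 and 2.63 CPM (log2 4.06, adjusted p = 0.000101) and exceeded b-gal- cells (28.1 and 33.4 CPM). Wnt2, a Wnt ligand of central endothelium, was at 58.3 and 107 CPM against 2.51 and 9.34 CPM (log2 3.87, adjusted p = 0.00171), below the 113 and 256 CPM of b-gal- cells.

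**Figure D4:**
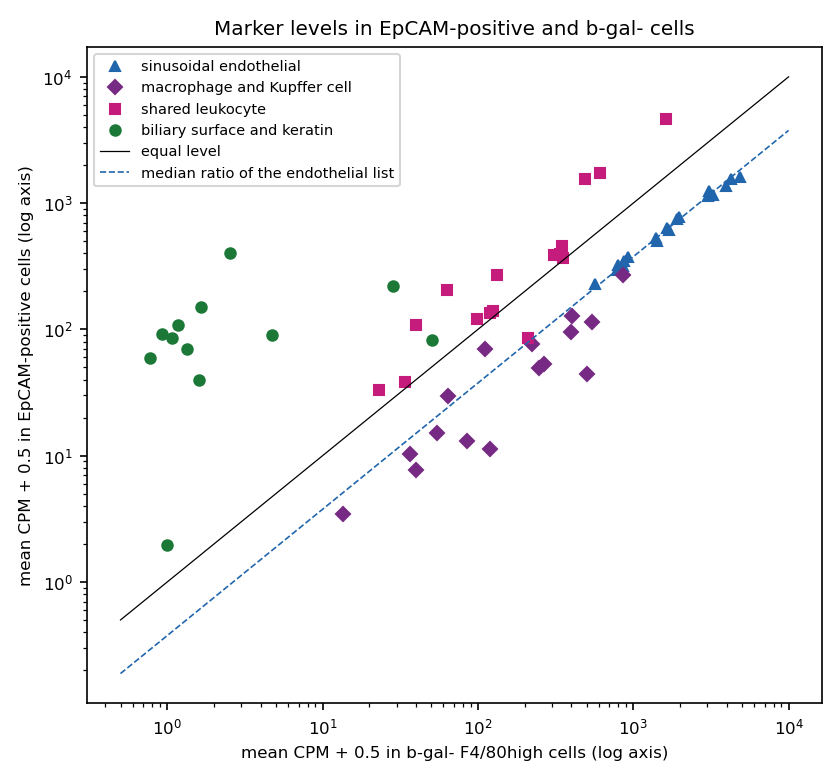
Mean CPM + 0.5 in EpCAM-positive cells against that in b-gal- F4/80high cells, both on log axes, for members of 4 gene lists, with a solid line at equal level and a dashed line at the median ratio of the sinusoidal endothelial list (37.6%). Endothelial genes follow the dashed line, leukocyte genes range from 41.2% to 321%, macrophage genes from 8.87% to 63.1% and biliary genes stand far above it.

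All 10 tested B cell and plasma cell genes were higher than in hepatocytes (median log2 5.85), and 6 of them were in the restricted class. Cd79a, a chain of the B cell receptor complex, was at 65.9 and 22.7 CPM against 0.0738 and 0.0798 CPM (log2 6.09, adjusted p = 0.000113), with 4.26 and 6.02 CPM in b-gal- cells. Mzb1, a chaperone of antibody assembly, was at 196 and 50.4 CPM against 0 and 0.559 CPM (log2 7.10, adjusted p = 0.000194). Of 12 dendritic cell genes, 11 were higher and 1, Bst2, lower (median log2 4.90). Flt3, the growth factor receptor of dendritic cells, was at 186 and 53.1 CPM against 0.148 and 0.319 CPM (log2 7.10, adjusted p = 9.45e-05), and Itgae, an integrin of cross-presenting dendritic cells, at 174 and 31.2 CPM against 1.11 and 0.958 CPM (adjusted p = 0.000704). In each of these genes replicate 1 was the higher EpCAM-positive library, and the lower one was still above both hepatocyte libraries. Among 16 genes shared by leukocytes, 15 were higher (median log2 4.78), led by Cytip (293 and 113 against 0.812 and 0.399 CPM, log2 7.39, adjusted p = 3.07e-05) and the class II genes H2-Ab1 (2295 and 797 against 8.86 and 12.4 CPM, log2 6.95, adjusted p = 0.000121) and H2-Aa. T cell and NK cell genes were higher in 11 of 15 (median log2 2.58, or 2.77 at the floor) at low levels, with Cd28 at 17.7 and 7.59 CPM.

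Macrophage genes behaved differently. Of 16, 3 were higher than in hepatocytes (Csf1r, Cd68 and Mertk) and 13 passed no test (median log2 0.56). Adgre1, which encodes F4/80, was at 138 and 14.2 CPM in EpCAM-positive cells, 20.1 and 13.9 CPM in hepatocytes and 1731 and 1361 CPM in b-gal+ cells, and Clec4f, a Kupffer cell lectin, at 77.5 and 10.5 CPM, 85.5 and 72.6 CPM and 8530.1 and 10238 CPM. The list rests on which EpCAM-positive library is used: 11 members were higher without replicate 2 and 7 were lower without replicate 1, and 8 were higher with library totals. The call of Csf1r was lost without either hepatocyte library and that of Cd68 without hepatocyte replicate 2 (adjusted p up to 0.0778 and 0.0593 over the leave-one-out fits).

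Stellate cell and fibroblast genes gave 2 calls of 16 (Rgs5 and Dpt, both higher; median log2 0.81), and 13 with library totals. No member was called without hepatocyte replicate 1 and 1 without hepatocyte replicate 2, against 4 without either b-gal+ library, and Rgs5 lost its call without EpCAM-positive replicate 2 or hepatocyte replicate 1 (adjusted p up to 0.0909 by limma). Of 7 mesothelial genes 2 were higher, Upk1b (7.02 and 30.9 against 0 and 0.16 CPM) and Gpm6a (17 and 68.1 against 0.221 and 0.319 CPM, log2 5.49, adjusted p = 0.000395), while Msln and Wt1, which define mesothelium, were at 5.65 and 0.15 CPM and 3.25 and 0.374 CPM and passed no test. Neutrophil and monocyte genes were higher in 5 of 10 (median log2 3.53), with 8 without EpCAM-positive replicate 2 and 9 with DESeq2 or with the replicate number as a block. Erythroid and platelet genes gave 1 call higher and 2 lower of 6 tested, and Alas2, the heme enzyme of red cell precursors, was lower at 0.182 and 0.262 CPM against 114 and 45.7 CPM (log2 -6.66, adjusted p = 5.24e-05).

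Proliferation genes were higher in 15 of 21 (median log2 2.08), none being lower. Mki67 was at 208 and 49.8 CPM in EpCAM-positive cells against 7.83 and 3.27 CPM in hepatocytes (log2 4.19, SE 0.74, adjusted p = 0.00253), and Mcm6, a helicase subunit of DNA replication, at 42.9 and 22.5 CPM against 3.1 and 1.04 CPM (log2 3.75, adjusted p = 0.000802). EpCAM-positive replicate 1, the library with more immune transcripts and fewer duct transcripts, was the higher one by over 2-fold for 17 of the 21, and 10 members were higher without hepatocyte replicate 2. Which cells of the gate carry these transcripts was not tested.

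Immediate-early and dissociation stress genes were higher in 20 of 21 (median log2 3.15), with Hsp90aa1 the 1 without a call. Atf3 was at 595 and 1869 CPM against 6.05 and 1.92 CPM (log2 8.05, adjusted p = 6.65e-05), Hspa1a at 270.4 and 77.3 CPM against 0.369 and 0.479 CPM (log2 7.30, adjusted p = 0.000124) and Ier3 at 121 and 158 CPM against 1.18 and 1.52 CPM (log2 6.24, adjusted p = 1.57e-05). F4/80high cells, which were sorted too, had Atf3 at 726 and 666 CPM (b-gal+) and 317 and 228 CPM (b-gal-) and Fosb at 1809 and 1677 CPM and 947 and 1069 CPM. For these 2 genes all 6 sorted libraries lay far above both unsorted hepatocyte libraries, and sorting and cell type cannot be told apart.

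On the other side, hepatocyte genes were lower nearly without exception. All 22 secreted plasma protein genes were lower (median log2 -8.63), as were all 15 cytochromes P450 (median -9.01) and all 16 genes of bile acid synthesis and transport (median -7.96), against the background of 29.1%. Cps1, which commits ammonia to the urea cycle, had the largest difference: 10102 and 15656 CPM in hepatocytes and 0.213 and 15.3 CPM in EpCAM-positive cells (log2 -11.87, SE 1.24, adjusted p = 0.000233). Cyp3a11, a drug-metabolising P450, was at 6801 and 5975 CPM against 0.79 and 8.79 CPM (log2 -10.85, adjusted p = 5.73e-05), and Pck1, the gate to gluconeogenesis, at 7046 and 6651 CPM against 1.06 and 10.5 CPM (log2 -10.69, adjusted p = 5.46e-05). Abcb11, the bile salt export pump, was at 1728 and 3232 CPM against 0.608 and 3.03 CPM (log2 -10.22, adjusted p = 2.95e-05). In each, EpCAM-positive replicate 2 held more than replicate 1 and both were far below either hepatocyte library. The other 8 of the 12 lowest differences, Apoa2, Cml2, Hrg, Apoa1, Cpn2, Cyp2e1, Cyp2c70 and Apoc3, lay between -10.34 and -10.09. In the urea cycle and amino acid list 17 of 18 were lower (median -6.89), in the pericentral list 12 of 13 (median -8.34) and in the periportal list 12 of 14 (median -6.93). Lgr5, the gene whose reporter the mice carry, belongs to the pericentral list and was at 6.72 and 14 CPM in hepatocytes and 0.213 and 0 CPM in EpCAM-positive cells (log2 -4.10, adjusted p = 0.000189).

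Not every liver-enriched gene followed. Of 16 hepatocyte transcription factors 13 were lower (median log2 -3.93), led by Creb3l3 (605 and 612 against 0.79 and 4.15 CPM, log2 -7.96, adjusted p = 4.61e-05) and including Hnf4a (1342 and 1189 against 7.23 and 35 CPM, log2 -6.25, adjusted p = 0.000286), the master factor of the hepatocyte. Foxa1 (5.77 and 44.6 against 14.9 and 15.2 CPM, log2 0.11, adjusted p = 0.912), Prox1 (23.9 and 142 against 118 and 111 CPM, log2 -0.96, adjusted p = 0.279) and Onecut1 passed no test, and for each of these the hepatocyte libraries lay between the EpCAM-positive ones. These are factors that the ducts and hepatocytes share in development.

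The residual hepatocyte signal in EpCAM-positive cells was uneven across genes. In replicate 2 the 22 plasma protein genes stood at 0.136% to 7.01% of the hepatocyte mean (median 0.498%), and in replicate 1 at 0.0258% to 1.40% (median 0.130%). Ambp, a plasma protease inhibitor precursor, was at 92.9 and 466 CPM, against 19.3 and 19.8 CPM in b-gal+ cells, and was called higher than in the F4/80high mean (log2 3.74, adjusted p = 0.00697). Apoa1 was at 1.88 and 11.6 CPM against 11.7 and 16.7 CPM in b-gal+ cells (log2 -0.95, adjusted p = 0.312) and passed no test against the F4/80high mean.

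All 19 respiratory chain subunits tested were lower in EpCAM-positive cells (median log2 -2.49). The EpCAM-positive mean was 11.9% to 26.9% of the hepatocyte mean over the 19 genes. Replicate 1 was at 13.1% to 31.7% and replicate 2 at 10.7% to 30.7%. The size of these differences rests in part on the TMM scaling. With TMM the median of all tested genes was 0.15 on the log2 scale, and with library totals it was 1.37. Sdhb, a subunit of complex II, was at 57.9 and 47.6 CPM against 439 and 389 CPM (log2 -2.97, SE 0.17, adjusted p = 2.29e-05), and Atp5b, the catalytic subunit of ATP synthase, at 446 and 398 CPM against 2823 and 2655 CPM (log2 -2.70, adjusted p = 0.000195). In b-gal- cells Sdhb was at 54 and 48.8 CPM and Atp5b at 417 and 329.8 CPM. None of the 19 differed by over 2-fold between the EpCAM-positive replicates.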

How the data were processed

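RNA of 2 libraries per group was sequenced on an Illumina instrument. Reads were counted per gene with HTSeq against GRCm38.p4 (mm10), per the submitters' processing notes. No aligner was given in the sources used here. Hepatocyte replicate 1 was deposited as plain counts, and the authors deposited the other 7 libraries as counts multiplied by 1 factor each. Dividing by the smallest step (1.08 to 1.54) gave whole reads for 100% of values within 0.01 reads. The 14 digit-only symbols of each file (0.0514% to 0.182% of reads) were dropped.

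TMM factors and a low-count filter (filterByExpr, edgeR 4.0.16) left 14404 genes, and log2(CPM + 0.5) of all 8 libraries was fitted in limma 3.58.1 with an intensity trend (R 4.3.3, 4 residual degrees of freedom), Benjamini-Hochberg adjustment over all genes and a threshold of 0.05. Fold changes are on that log2 scale and understate those of low genes. The fit was also run on simulated counts, with outcomes not reported here. Far fewer genes were changed there than were called in these data, so that run does not bear on the scaling. Floors of 3 reads cover counting error only. Counts without stated strand use cannot separate overlapping genes. Promoters are from RefSeq GRCm38.p6, and 8727 tested genes had a single entry.

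The gene lists and the comparison were chosen with earlier results of these data known. Named by rule were the 4 check genes, the 12 highest and 12 lowest differences (mean of at least 20 CPM, no overlap), the 6 most abundant genes of each class, up to 4 called members of each list with the largest difference (at least 10 CPM) and the 6 largest replicate gaps in each direction; genes named beyond these were chosen after their values were seen, and some genes the rule names are not reported here. Alternatives were edgeR and DESeq2 1.42.0 on the reads, other scalings, pseudocounts and filters, a replicate block, a fit of 4 libraries and leaving out each library.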

Additional observations from a re-analysis of the deposited data

How the results depend on the processing

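Scaling moved the balance of calls against hepatocytes most. With library totals 9665 genes were higher and 1651 lower, and on the scale of the deposited values 9525 and 1698; against the F4/80high mean the totals gave 2703 and 618, and the deposited scale 731 lower. Under edgeR, DESeq2, DESeq2 size factors, other pseudocounts, no filter and the 4-library fit, the counts against hepatocytes stayed within 1.5 times the reported ones. Leaving out 1 library gave 3621 to 4757 higher and 3507 to 4156 lower genes against hepatocytes, and 870 to 2170 higher and 657 to 1699 lower against the F4/80high mean. With the replicate block, 5158 genes were higher and 4439 lower than in hepatocytes; replicate differences correlated at 0.177 to 0.494 between groups, and Y-linked reads follow the number in every group, but the labels do not say what a number marks and 2 numbers per group are too few to settle a pairing. For the class restricted to the EpCAM-positive gate, alternatives chosen after seeing the data gave 161 genes at a 4-fold minimum, 643 with totals (and 4414 in the class that is neither restricted nor shared) and 677 to 798 without 1 EpCAM-positive library. Cd5l, not called at -0.25, turned to 0.69 with edgeR, 0.64 with DESeq2, 1.16 with totals and 1.10 on the deposited scale, and ranged from -2.15 to 1.65 with 1 library left out. Ddx3y, not called at -0.40, turned to 0.28 with totals and 0.29 on the deposited scale, and ranged from -4.36 to 3.51. The call of Alb was lost in the 4-library fit (adjusted p = 0.209 by limma), and those of Actb, Adam33, Cd68, Csf1r, Lyz2, Rgs5, Sox9 and Spp1 in at least 1 fit without a library. Where a scaling or a left-out library is not itself the change, the cause was not tested.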
